A study of Mus musculus with 12 samples.

Results

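Marginal zone B cells that lack Trpm5 were compared with wild-type cells after 4 h of B cell receptor stimulation. The comparison uses the 4 of 12 libraries that came from cells given an antibody against IgM at 10 µg/mL. The members are the genes with at least 1 FPKM (fragments per kilobase of transcript, scaled to the mapped total) in at least 2 of the 12 libraries, 10797 of 24346 symbols. The Trpm5-/- group under anti-IgM held 2 libraries (KO replicates 1 and 2) and the wild-type group under anti-IgM held 2 (WT replicates 1 and 2). The other 8 libraries came from Trpm5-/- and wild-type cells given lipopolysaccharide (LPS, 10 µg/mL) or no stimulus for the same time, with 2 libraries in each group. All cells are labelled as mouse marginal zone B cells, and the study, as titled, concerns calcium signals that LPS induces, with anti-IgM as the other stimulus. The labels say nothing of the strain, age or sex of the animals, of the allele, or of separate mice or cultures behind the replicates. A p-value here therefore measures the spread between libraries alone, and that spread may be technical.

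TRPM5 is a channel in the cell membrane that opens when calcium rises inside the cell and lets sodium and other monovalent cations in. Cross-linking of surface IgM activates the B cell receptor, whose kinases turn on phospholipase C gamma, release calcium from the endoplasmic reticulum through IP3 receptors and activate NFAT, NF-kB and the MAP kinases. Marginal zone B cells lie at the blood-facing edge of the splenic white pulp, carry much surface IgM and CD21 (Cr2) and little CD23 (Fcer2a), and answer blood-borne antigens quickly.

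The 4 anti-IgM libraries had relative depths of 0.895 to 1.27, with KO replicate 1 set to 1, as judged by what a single fragment adds to low genes, and summed FPKM of 620848 to 677062. Pearson r of log2 values across genes was 0.9778 between the KO libraries, 0.9727 between the WT libraries and 0.9661 to 0.9695 between a KO and a WT library. Trpm5 itself was listed at 0 in both KO libraries, against 0.0590 and 0.0241 FPKM in the WT libraries, which is 2 fragments and 1 fragment. At such depth the target gene cannot check the genotype labels under anti-IgM, and it did not pass the filter on low values. Markers of the labelled cell type were present: Cr2 stood at 51.6 and 52.5 FPKM in KO cells and 58.5 and 57.1 FPKM in WT cells, and Cd79a, which carries the receptor's signal into the cell, at 528 to 605 FPKM over the 4 libraries. Cd1d1, an antigen-presenting molecule that is high on marginal zone B cells, read only 2.09 to 5.12 FPKM.

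Trpm5-/- cells had about 2-fold more RNA for the inflammatory chemokines Ccl3 and Ccl4 than wild-type cells after anti-IgM, and more for the interleukin 5 receptor chain Il5ra and the transcription factor Spib. They had less RNA for the IP3 receptor Itpr2, the NF-kB target Il4i1, the phosphatase Ptpn6 and the follicular marker Fcer2a. By list, 8 of 14 tested genes of MHC class II presentation and 8 of 30 NF-kB targets were lower, and 5 of 24 genes of sterol and fatty acid synthesis and 4 of 22 of mitosis were higher, counts that shrank when a library was left out, as given with each list. With limma on log2(FPKM + 1) and a Benjamini-Hochberg adjusted p under 0.05, 206 genes (1.91% of those tested) were called higher and 207 (1.92%) lower in Trpm5-/- cells, 413 (3.83%) in all, and 2116 had an unadjusted p under 0.05. At least 2-fold differences were found for 29 of the higher genes (0.269%) and 33 of the lower genes (0.306%). Differences are given on the log2(FPKM + 1) scale as KO minus WT with the standard error of the model, which understates the change of genes of low level. The number of calls fell to 142 without KO replicate 1, 129 without KO replicate 2, 156 without WT replicate 1 and 119 without WT replicate 2. Of 112 genes that were named by rule and called, 35 kept the call under every alternative run.

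**Figure D1:**
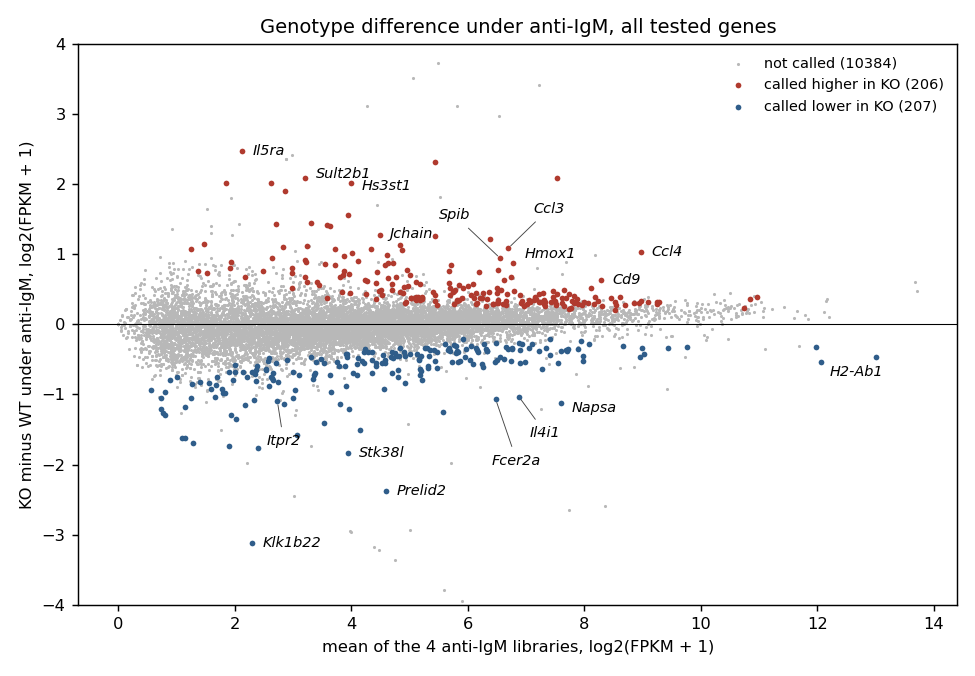
Each dot is 1 of the 10797 tested genes, with the mean level over the 4 anti-IgM libraries on the x axis and the KO minus WT difference on the y axis, both as log2(FPKM + 1). The 206 genes called higher in KO and the 207 called lower are coloured, and 23 genes lie outside the plotted range of the difference.

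Il5ra, the ligand-binding chain of the interleukin 5 receptor, had the largest rise among the genes that the naming rule covers. Il5ra read 7.34 and 5.41 FPKM in KO cells, against 0.515 and 0.150 FPKM in WT cells, a difference of 2.47 ± 0.20 (limma adjusted p = 0.000179). Csf2rb, the signalling chain that the interleukin 5 receptor shares with those of interleukin 3 and GM-CSF, was higher too, at 33.1 and 36.2 FPKM in KO cells and 22.7 and 24.4 FPKM in WT cells (0.54 ± 0.11, limma adjusted p = 0.0254). Sult2b1, a sulfotransferase for cholesterol, read 14.6 and 13.2 FPKM in KO cells and 3.32 and 1.84 FPKM in WT cells (2.09 ± 0.22, limma adjusted p = 0.000942). Hs3st1, which adds sulfate groups to heparan sulfate, read 23.3 and 25.9 FPKM in KO cells and 4.58 and 6.13 FPKM in WT cells (2.02 ± 0.21, limma adjusted p = 0.000856). In each of these genes the libraries of the 2 genotypes did not overlap, which was so, with KO above WT, for 2791 of all tested genes (25.8%).

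Jchain, the peptide that joins IgM into pentamers, read 42.0 and 34.8 FPKM in KO cells and 16.4 and 17.3 FPKM in WT cells (1.14 ± 0.18, limma adjusted p = 0.00757). Emp3, a small membrane protein, read 65.3 and 54.9 FPKM in KO cells and 20.6 and 29.1 FPKM in WT cells (1.26 ± 0.14). Clec2i, a C-type lectin that is a ligand for NK cell receptors, read 115 and 116 FPKM in KO cells and 46.3 and 52.2 FPKM in WT cells (1.21 ± 0.13). Its span overlaps that of BC035044 on the opposite strand, which was also called higher (1.27). Without strand, reads from where the 2 genes overlap cannot be told apart. Of 130 named genes with a position, 22 have an annotated span that overlaps that of another tested gene. Whether exons are shared was not examined, so how far their values are uncertain is not known. The Sprouty gene Spry1, an inhibitor of receptor signals to MAP kinases, rose by 1.45 ± 0.25. Nudt7, a peroxisomal hydrolase of coenzyme A, rose by 1.43 ± 0.24 and Rps4l, a copy of a ribosomal protein gene, by 1.57 ± 0.25. Cmtm8 and the zinc finger gene Zfp948 rose by 1.41 ± 0.33 and 1.40 ± 0.23. These 5 genes and Jchain each lost the call without 3 or 4 of the 4 anti-IgM libraries, left out singly. Gpr137b-ps was higher (9.51 and 11.3 FPKM in KO cells, 2.03 and 2.06 FPKM in WT cells) while its near-identical copy Gpr137b was lower (7.67 and 7.90 FPKM in KO cells, 17.1 and 19.3 FPKM in WT cells). How the reads divide between the copies is uncertain.

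Among the falls, Prelid2, which belongs to a family of lipid transfer proteins, read 5.34 and 8.56 FPKM in KO cells and 36.5 and 42.5 FPKM in WT cells (-2.38 ± 0.19, limma adjusted p = 0.000175). Stk38l, a kinase of the NDR family, read 5.70 and 5.75 FPKM in KO cells and 22.1 and 23.9 FPKM in WT cells (-1.84 ± 0.14, limma adjusted p = 0.00013). Napsa, an aspartic protease of the endosomal pathway, read 124 and 117 FPKM in KO cells and 264 FPKM in each WT library (-1.12 ± 0.06, limma adjusted p = 1.26e-05). In each of these both KO libraries lay below both WT libraries. Klk1b22, a member of the kallikrein family of close copies, was listed at 0 in both KO libraries and in the 4 KO libraries of the other conditions, against 9.17 and 6.47 FPKM in WT cells under anti-IgM. A secreted protein, Crisp3, stood at -1.51 ± 0.13 and Adat2, a subunit of a tRNA deaminase, at -1.41 ± 0.18. The gene Plbd1, a lysosomal hydrolase, stood at -1.21 ± 0.12 and the phospholipid transporter gene Atp10d at -1.14 ± 0.14. The falls of Actr3b (-1.57 ± 0.31), related to the actin-nucleating complex, and of Mcoln3 (-1.15 ± 0.26), an endolysosomal cation channel, were lost without any one of the 4 anti-IgM libraries.

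Of 7 tested chemokine genes 2 rose, against 1.91% of all tested genes, and none fell. For the counts of every list that follows, the shares over all tested genes are 1.91% called higher and 1.92% called lower. Ccl3, a secreted chemokine that recruits monocytes and T cells, read 145 and 134 FPKM in KO cells, against 65.4 and 65.2 FPKM in WT cells. Its difference was 1.08 ± 0.07, or 2.14-fold (limma adjusted p = 7.26e-05). Its neighbour Ccl4, a chemokine of the same family, read 690.0 and 659.8 FPKM in KO cells and 332 and 326 FPKM in WT cells, a difference of 1.04 ± 0.07 or 2.05-fold (limma adjusted p = 7.26e-05). Both kept their calls under every alternative. Anti-IgM raised both genes in either genotype: Ccl3 by 1.48 over unstimulated cells in KO and by 1.29 in WT, and Ccl4 by 1.56 in KO and by 1.14 in WT, values that share the anti-IgM libraries with the genotype difference. The list of chemokines had a median difference of 0.40, against -0.0026 over all tested genes. Of 19 tested interleukins and TNF family cytokines 2 fell. They were Ltb, a membrane-bound TNF family cytokine needed for lymphoid tissue architecture (28.9 and 25.9 FPKM in KO cells, 40.4 and 45.5 FPKM in WT cells; -0.63 ± 0.07), and Il16 (-0.45 ± 0.09), whose call was lost without KO replicate 2, WT replicate 1 or WT replicate 2. The count of 2 became 2, 1, 2 and 1 without KO replicate 1, KO replicate 2, WT replicate 1 and WT replicate 2.

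The promoter of Ccl3 is shown as that of the chemokine called higher, for comparison with those of NF-kB target genes called lower further on. It spans 250 bases before to 50 after the RefSeq transcription start on GRCm38.p6, at chr11:83649329-83649628 on the minus strand. It held no match to the NF-kB consensus on either strand and 2 matches to the NFAT core GGAAA, and is printed in lower case throughout because capitals mark NF-kB matches. The table of RefSeq promoters used here held 9 of the 10 genes looked up, and Ccl4 was the other.

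Ccl3 promoter: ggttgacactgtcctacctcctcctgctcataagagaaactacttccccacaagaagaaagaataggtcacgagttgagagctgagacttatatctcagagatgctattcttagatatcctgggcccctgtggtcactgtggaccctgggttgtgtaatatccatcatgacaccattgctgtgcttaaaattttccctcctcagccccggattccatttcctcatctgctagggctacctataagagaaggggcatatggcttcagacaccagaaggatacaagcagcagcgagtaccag

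Cytokine receptors moved in both directions, with 2 of 27 tested genes higher and 3 lower. Besides Il5ra and Csf2rb, which rose, the receptor for interleukin 21, Il21r, which steers B cells towards plasma cells or death, read 99.9 and 106 FPKM in KO cells and 148 and 151 FPKM in WT cells (-0.54 ± 0.05, limma adjusted p = 0.000298). Il4ra, the interleukin 4 receptor chain, read 18.6 and 19.1 FPKM in KO cells and 31.2 and 31.0 FPKM in WT cells (-0.69 ± 0.08, limma adjusted p = 0.00112). Il2rg, the signalling chain common to both of these receptors, stood at -0.34 ± 0.06. The median over the list was -0.18, and 1 gene of the list was called higher with any of the 4 libraries left out. In the TNF receptor and TRAF list 4 of 18 genes fell, the receptor Tnfrsf18 (GITR, -0.59 ± 0.10), the adaptor Traf1 (-0.37 ± 0.09) and the ubiquitin ligases Birc2 (-0.44 ± 0.09) and Birc3 (-0.21 ± 0.05). That count became 1, 0, 0 and 0 without KO replicate 1, KO replicate 2, WT replicate 1 and WT replicate 2, in that order.

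At the B cell receptor itself, 5 of 29 tested activating components fell and none rose, with a median of -0.14. Among them were Cd81, a tetraspanin of the B cell surface, the scaffold Bank1, the exchange factor Rasgrp3 and the exchange factor Vav1, at -0.45 to -0.30. With KO replicate 1, KO replicate 2, WT replicate 1 or WT replicate 2 left out, 0, 0, 0 and 1 of the list were called lower. Of 25 tested inhibitory receptors, phosphatases and adaptors 4 fell and none rose, with a median of -0.17, and 3 were called with any of the 4 libraries left out. Ptpn6, the phosphatase SHP1 that dampens receptor signals, read 214 and 208 FPKM in KO cells and 286 and 294 FPKM in WT cells (-0.46 ± 0.05, limma adjusted p = 0.00131). Cd72, an inhibitory lectin, read 449 and 441 FPKM in KO cells and 596 FPKM in each WT library (-0.42 ± 0.05, limma adjusted p = 0.00231). Fcrl1, an Fc receptor-like protein, read 42.0 and 42.9 FPKM in KO cells and 60.0 and 64.4 FPKM in WT cells (-0.54 ± 0.06, limma adjusted p = 0.00112). Both lists thus held lower calls alone, and 17 of the 29 and 16 of the 25 genes had both KO libraries below both WT libraries, against 25.8% of all tested genes.

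Of 23 tested IP3 receptors, components of store-operated calcium entry and calcium pumps 2 fell, both of them IP3 receptors, and none rose. Itpr2 read 3.38 and 3.09 FPKM in KO cells and 7.73 and 8.37 FPKM in WT cells (-1.10 ± 0.13, limma adjusted p = 0.00162). Itpr1 read 1.88 and 1.83 FPKM in KO cells and 3.46 and 3.71 FPKM in WT cells (-0.68 ± 0.15, limma adjusted p = 0.0352). Itpr2 kept its call under every alternative, while Itpr1 lost it without any one of the 4 anti-IgM libraries. The list's count of lower genes was 1, 2, 1 and 1 without KO replicate 1, KO replicate 2, WT replicate 1 and WT replicate 2. The list's median was -0.0665. Of 19 tested genes of the calcineurin and NFAT list 1 fell, the calcium-dependent kinase Camk4. It read 0.254 and 0.450 FPKM in KO cells and 1.34 and 1.32 FPKM in WT cells (-0.79 ± 0.16, limma adjusted p = 0.0223) and lost the call without any one of the 4 libraries. The median of this list was -0.0398.

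NF-kB subunits and their inhibitors had 5 lower and 1 higher genes of 16 tested, with a median of -0.18. Nfkb2, the precursor of the non-canonical subunit, read 89.2 and 90.2 FPKM in KO cells and 115 FPKM in each WT library (-0.35 ± 0.05, limma adjusted p = 0.00507). Its span overlaps that of Psd on the opposite strand, which was also called lower at 2.40 FPKM in KO cells and 4.38 FPKM in WT cells (-0.67). Without strand, reads from where the 2 genes overlap cannot be told apart. Rel, the subunit most used after B cell receptor stimulation, read 96.7 and 92.5 FPKM in KO cells and 117 and 124 FPKM in WT cells (-0.35 ± 0.06, limma adjusted p = 0.00858). Nfkbiz (-0.41 ± 0.08), Nfkbia (-0.23 ± 0.05) and Bcl3 (-0.35 ± 0.08), members of the IkB family, were also lower, whereas Nfkbid (0.30 ± 0.05), of the same family, was higher. The lower count became 2, 2, 2 and 1, and the higher count 0 each time, without KO replicate 1, KO replicate 2, WT replicate 1 and WT replicate 2. Of 30 tested NF-kB target genes 8 fell and none rose, with a median of -0.20, and 6, 4, 5 and 4 were called lower with the same libraries left out in turn. The earlier results of these data, with which the list was chosen, already showed NF-kB targets as lower.

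Il4i1, a secreted amino acid oxidase induced by interleukin 4 and NF-kB, fell most, to 78.0 and 74.7 FPKM in KO cells, against 158 and 156 FPKM in WT cells (-1.03 ± 0.05, 0.486 of the WT mean, limma adjusted p = 1.26e-05). It shares its locus on the same strand with Nup62, which averaged 60.3 and 59.8 FPKM in KO and WT cells and was not called (0.01). Icam1, an adhesion molecule, read 29.3 and 32.4 FPKM in KO cells and 46.3 and 47.8 FPKM in WT cells (-0.59 ± 0.07, limma adjusted p = 0.002). Bcl2l1, the survival protein BCL-XL, read 17.8 and 17.6 FPKM in KO cells and 25.3 and 27.5 FPKM in WT cells (-0.55 ± 0.06, limma adjusted p = 0.00147). In these 3 and in Ltb each KO library was below each WT library. Tnfaip3, the ubiquitin-editing inhibitor A20, read 37.9 and 34.9 FPKM in KO cells and 48.0 and 46.6 FPKM in WT cells (-0.37 ± 0.06, limma adjusted p = 0.00857). Birc2, Birc3 and Traf1, given above, complete the 8.

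The promoters of 3 of these genes are shown because their RNA moved opposite to that of Ccl3. Capitals mark matches to the NF-kB consensus, which was found on either strand in 8.46% of 32851 RefSeq mouse promoters of 300 bases. Of 12 promoters of the 8 called target genes, some of them alternative promoters of the same gene, 3 held a match (in Tnfaip3, Bcl2l1 and Ltb). The target genes that were not called were not searched, so these shares do not bear on the calls. Tnfaip3 (chr10:19015361-19015660, minus strand) held 2 matches, starting 125 and 12 bases before the transcription start, Ltb (chr17:35194257-35194556, plus strand) held 1, starting 87 bases before it, and Il4i1 (chr7:44836038-44836337, plus strand) held none. The NFAT core, found in 61.3% of all these promoters, was present in each of the 3 promoters shown. The AP-1 motif TGANTCA, found in 7.81%, was present in Tnfaip3 alone of the 9 genes looked up with a promoter in the table. A second RefSeq promoter of Tnfaip3 (chr10:19011914-19012213, minus strand) held no match to any of these motifs. The Tnfaip3 promoter shown was chosen because it held NF-kB matches. In Tnfaip3 and Ltb an NFAT core lay within an NF-kB match.

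Tnfaip3 promoter: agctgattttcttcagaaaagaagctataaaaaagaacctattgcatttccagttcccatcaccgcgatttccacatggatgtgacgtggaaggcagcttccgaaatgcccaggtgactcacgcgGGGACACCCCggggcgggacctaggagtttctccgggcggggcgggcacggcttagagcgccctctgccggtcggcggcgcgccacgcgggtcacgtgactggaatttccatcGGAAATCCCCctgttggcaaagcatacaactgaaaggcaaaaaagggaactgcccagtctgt

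Ltb promoter: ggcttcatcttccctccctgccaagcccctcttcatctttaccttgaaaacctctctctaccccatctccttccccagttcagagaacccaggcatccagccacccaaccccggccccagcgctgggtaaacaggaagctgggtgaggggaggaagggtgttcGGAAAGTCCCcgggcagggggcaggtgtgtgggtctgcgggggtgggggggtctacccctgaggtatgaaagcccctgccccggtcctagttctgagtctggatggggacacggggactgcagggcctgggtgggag

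Il4i1 promoter: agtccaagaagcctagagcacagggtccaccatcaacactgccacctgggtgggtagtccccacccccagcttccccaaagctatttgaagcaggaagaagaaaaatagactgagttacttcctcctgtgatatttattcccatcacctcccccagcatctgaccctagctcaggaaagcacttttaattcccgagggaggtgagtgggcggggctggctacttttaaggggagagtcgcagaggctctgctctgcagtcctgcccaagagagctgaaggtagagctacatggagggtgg

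Immediate early transcription factors, which are switched on within minutes of receptor signals, had 4 lower and 2 higher genes of 25 tested, with a median of -0.0588. Egr1 read 87.5 and 85.8 FPKM in KO cells and 118 and 134 FPKM in WT cells (-0.53 ± 0.07, limma adjusted p = 0.00395). Fos, a subunit of AP-1, read 6.60 and 6.98 FPKM in KO cells and 12.1 and 11.5 FPKM in WT cells (-0.72 ± 0.10, limma adjusted p = 0.00526). Ier2 (-0.33 ± 0.06) and the antiproliferative Btg2 (-0.28 ± 0.07) were the other lower genes. Atf3, a stress-induced factor, moved the other way, with 28.5 and 23.6 FPKM in KO cells and 16.2 and 14.2 FPKM in WT cells (0.74 ± 0.12, limma adjusted p = 0.00858), as did Klf6 (0.37 ± 0.09). Without KO replicate 1, KO replicate 2, WT replicate 1 and WT replicate 2 the lower count was 2 each time and the higher count 0, 1, 1 and 0. Of 17 tested brakes on MAP kinases Spry1 alone was called, and 2, 0, 0 and 0 were with the same libraries left out in turn. Of 20 tested feedback inhibitors and mRNA decay factors, the decay nucleases Zc3h12c (25.0 and 24.6 FPKM in KO cells, 16.9 and 15.4 FPKM in WT cells) and Zc3h12d (20.7 and 22.5 FPKM in KO cells, 11.4 and 10.7 FPKM in WT cells) rose. The decay factor Zfp36l1 (57.0 and 63.3 FPKM in KO cells, 91.0 and 88.4 FPKM in WT cells) fell. The 2 rises numbered 1, 0, 2 and 0 with those libraries left out, and the fall was kept each time.

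**Figure D2:**
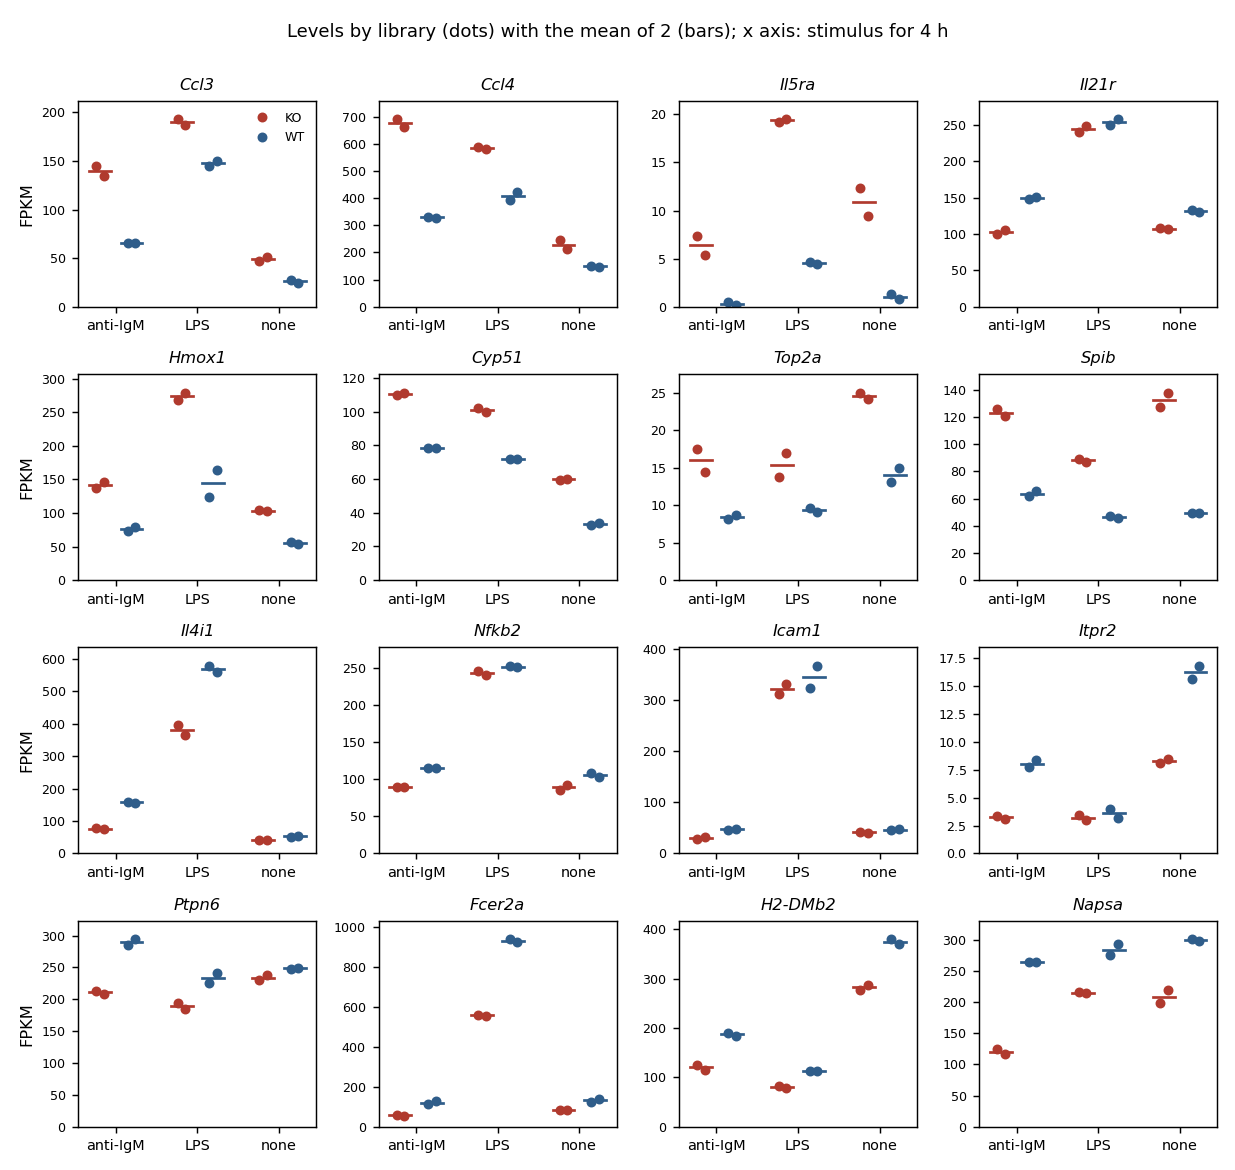
FPKM of 16 genes in each library (dots) with the mean of the 2 libraries of a group (bars), by stimulus on the x axis, KO left of WT. Under anti-IgM Ccl3, Ccl4, Il5ra, Hmox1, Cyp51, Top2a and Spib lie above and the other 9 below the WT libraries, with no overlap, while the KO and WT libraries of Icam1 and Itpr2 overlap under LPS.

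Of 16 tested follicular genes 7 fell and none rose, with a median of -0.33, and 4 were called with any of the 4 libraries left out. Fcer2a (CD23), the low-affinity IgE receptor that marks follicular B cells, read 59.9 and 53.4 FPKM in KO cells and 112 and 128 FPKM in WT cells (-1.07 ± 0.08, 0.473 of the WT mean, limma adjusted p = 0.000121). Fcrl1 and Il4ra, given above, belong to the same list, as do the chromatin organizer Satb1 (-0.32 ± 0.06), the costimulatory ligand Icosl (-0.84 ± 0.17) and the inhibitory receptor Btla (-0.34 ± 0.07). Of 24 tested marginal zone genes 3 rose and none fell, with a median of 0.13. Cd9, a tetraspanin, read 374 and 388 FPKM in KO cells and 240.5 and 248 FPKM in WT cells (0.64 ± 0.06, 1.56-fold, limma adjusted p = 0.000239). The semaphorin receptor Plxnd1 (0.76 ± 0.16) and the IgM chaperone Mzb1 (0.36 ± 0.06) were the others. In 11 genes of the list both KO libraries were above and in 4 both were below the WT libraries. Over all tested genes this was so for 25.8% in each direction. Cr2, given above, was lower in both KO libraries. The marginal zone count became 2, 1, 2 and 1 without KO replicate 1, KO replicate 2, WT replicate 1 and WT replicate 2. In RNA from bulk samples, a smaller share of cells of a type and less RNA per cell cannot be told apart.

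Of 16 tested pan-B genes 6 fell and 1 rose, with a median of -0.24, and the lower count became 3, 3, 3 and 2 with KO replicate 1, KO replicate 2, WT replicate 1 or WT replicate 2 left out. The rise was in Spib, an ETS factor that B cells use to respond to their antigen receptor, with 125 and 121 FPKM in KO cells and 61.9 and 65.3 FPKM in WT cells (0.94 ± 0.06, 1.93-fold, limma adjusted p = 4.99e-05). Ms4a1 (CD20) read 212 and 206 FPKM in KO cells and 269 and 265 FPKM in WT cells (-0.35 ± 0.05, limma adjusted p = 0.00259), and Cd37, Cd74, Bank1 and Cd72 were among the other lower genes. The summed level of the list was 9538 and 9916 FPKM in KO cells and 12770 and 12820 FPKM in WT cells, of which Cd74 made up the larger part. Among 27 tested factors of quiescence and B cell fate, Spib, the HLH inhibitor Id2 (61.3 and 60.4 FPKM in KO cells, 39.4 and 40.6 FPKM in WT cells) and the xenobiotic receptor Ahr (0.76 ± 0.12) rose. In the same list Irf8 (-0.35 ± 0.05), Ets1 (-0.47 ± 0.07), Satb1 and Bcl6 (-0.47 ± 0.11) fell. The 3 rises numbered 2, 2, 3 and 2 and the 4 falls 0, 2, 1 and 0 with the same libraries left out in turn. Plasma cell genes had 2 rises, Jchain and Mzb1, and 1 fall, Bcl6, of 22 tested, and with the same libraries left out the rises numbered 1, 1, 1 and 0 and the fall was lost each time.

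Of 25 tested activation and costimulatory surface proteins 3 were lower and none was higher, among them Cd69 (-0.21 ± 0.05), an early activation antigen, and Icosl. With any of the 4 libraries left out, 1 was called. Of 32 tested integrins, adhesion molecules and positioning receptors 5 fell and 1 rose, with a median of -0.13. They included Ccr6, a chemokine receptor for homing to mucosal sites (164 and 139.9 FPKM in KO cells, 238 and 209 FPKM in WT cells), and Gpr132 (-0.54 ± 0.11), and the riser was Rgs10 (0.73 ± 0.16), which turns off G protein signals. The lower count of this list was 2, 1, 1 and 2 and the higher count 0 without KO replicate 1, KO replicate 2, WT replicate 1 and WT replicate 2.

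Of 14 tested genes of MHC class II presentation 8 fell and none rose, with a median of -0.37, the lowest among the pathway and B cell subset lists. H2-DMb2, a chain of the peptide editor of class II molecules, read 125 and 115 FPKM in KO cells and 190.5 and 184 FPKM in WT cells (-0.64 ± 0.05, limma adjusted p = 0.000212). H2-Ab1, the beta chain of the presenting molecule itself, read 3548 and 3436 FPKM in KO cells and 4989 and 5099 FPKM in WT cells (-0.53 ± 0.06, limma adjusted p = 0.00131). Ciita, the coactivator that switches the class II genes on, read 13.4 and 14.4 FPKM in KO cells and 19.8 and 21.2 FPKM in WT cells (-0.53 ± 0.11, limma adjusted p = 0.0235). In 12 of the 14 genes both KO libraries were below both WT libraries, against 25.8% of all tested genes. The count became 4, 3, 2 and 2 without KO replicate 1, KO replicate 2, WT replicate 1 and WT replicate 2. The list was lower in the other conditions too, with 7 falls and no rise under LPS, where 1.78% of all tested genes fell, and 9 falls and 1 rise without stimulus, where 1.66% fell and 4.45% rose. Of 16 tested Toll-like receptors and adaptors none was called, with a median of 0.013 that turned to -0.0273 with quantile normalization, and of 25 tested interferon-stimulated genes only Ifi44 fell, which was lost without any one of the 4 libraries.

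Of 22 tested mitosis genes 4 rose and none fell, with a median of 0.48. In 19 of them both KO libraries were above both WT libraries, against 25.8% of all tested genes. Top2a, which untangles DNA, read 17.6 and 14.4 FPKM in KO cells and 8.21 and 8.66 FPKM in WT cells (0.84 ± 0.13, limma adjusted p = 0.00603). Ube2c (0.88 ± 0.14), Birc5 (0.62 ± 0.11) and Prc1 (0.60 ± 0.11), of mitotic exit and the spindle, were the others. Their count became 0, 3, 2 and 1 without KO replicate 1, KO replicate 2, WT replicate 1 and WT replicate 2. The 34 tested genes of DNA replication had a median of 0.17. In 20 of them both KO libraries were above both WT libraries, against 25.8% of all tested genes, and in none below. Of this list 1 gene was called, Rrm2, the limiting subunit for making deoxynucleotides. It read 20.4 and 20.8 FPKM in KO cells and 9.12 and 10.3 FPKM in WT cells (1.01 ± 0.08, 2.12-fold, limma adjusted p = 0.000175), a call kept under every alternative. Anti-IgM lowered Top2a in both genotypes over 4 h, by 0.60 in KO cells and by 0.67 in WT cells. The mitosis list was higher in KO cells in the other conditions too. Without stimulus 12 of its genes were called higher (median 0.67), against 4.45% of all tested genes. Under LPS 5 were called higher (median 0.37), against 1.82%.

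Genes of sterol and fatty acid synthesis rose in 5 of 24 cases and none fell, with a median of 0.22. Cyp51, which demethylates lanosterol, read 110.0 and 111 FPKM in KO cells and 78.1 and 78.6 FPKM in WT cells (0.49 ± 0.05, limma adjusted p = 0.000702). Fdft1 (0.42 ± 0.06), Sqle (0.43 ± 0.07), Idi1 (0.38 ± 0.06) and Hmgcs1 (0.34 ± 0.06), from the same pathway, lay closer to the WT levels. Of the list, 2, 4, 4 and 2 genes were called without KO replicate 1, KO replicate 2, WT replicate 1 and WT replicate 2. Heme and oxidative stress genes rose in 5 of 16 cases and none fell, with a median of 0.35, and 3, 2, 2 and 1 were called with those libraries left out. Hmox1, which breaks down heme, read 137 and 146 FPKM in KO cells and 73.9 and 79.6 FPKM in WT cells (0.88 ± 0.10, 1.85-fold, limma adjusted p = 0.00169). Both subunits of the enzyme that starts glutathione synthesis were higher, Gclc (326 and 329 FPKM in KO cells, 236 and 221 FPKM in WT cells) and Gclm (0.42 ± 0.08). So were the thioredoxin reductase gene Txnrd1 (0.44 ± 0.07) and the metal-binding Mt1 (1.07 ± 0.24). Of the sterol list 15 genes were called higher and 2 lower without stimulus (median 0.41), and 5 and 1 under LPS (median 0.22). Of the heme list 8 were called higher without stimulus and 9 under LPS, and none lower. Over all tested genes 4.45% were called higher without stimulus and 1.82% under LPS.

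Smaller rises were found among chaperones, with 6 of 24 genes called (1 with any of the 4 libraries left out, 3 with quantile normalization) and a median of 0.18. Hspa8, the constitutive cytosolic chaperone, read 2278 and 2291 FPKM in KO cells and 1734 and 1738 FPKM in WT cells (0.40 ± 0.05, limma adjusted p = 0.00259), a call lost with quantile normalization (limma adjusted p = 0.465, with a range of 0.00131 to 0.465 over the alternatives). Of 28 tested ribosome biogenesis genes Npm1, Nop58 and Odc1 rose (0, 1, 1 and 0 without KO replicate 1, KO replicate 2, WT replicate 1 and WT replicate 2, and 1 with quantile normalization). Of 22 tested glycolysis genes Gapdh, Tpi1 and Slc16a1 rose (0 without any of those libraries), and the list's median of 0.0981 became -0.0082 with quantile normalization. Without stimulus 12 chaperone, 12 ribosome biogenesis and 8 glycolysis genes were called higher in KO cells, against 4.45% of all tested genes. Under LPS 3, 1 and 2 were, against 1.82%, and 1 chaperone gene was called lower. The 20 cytosolic ribosomal protein genes had no call under anti-IgM and a median of 0.16. In 19 of them both KO libraries lay above both WT libraries, against 25.8% of all tested genes. Quantile normalization took their median to 0.0076. Amino acid transporters and stress response genes had 1 fall, Ddit3 (-0.26 ± 0.06), of 20 tested. Of 19 tested genes of the BCL2 family and apoptosis 1 fell, Bcl2l1, with a median of -0.0297 that turned to 0.0418 with quantile normalization.

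**Figure D3:**
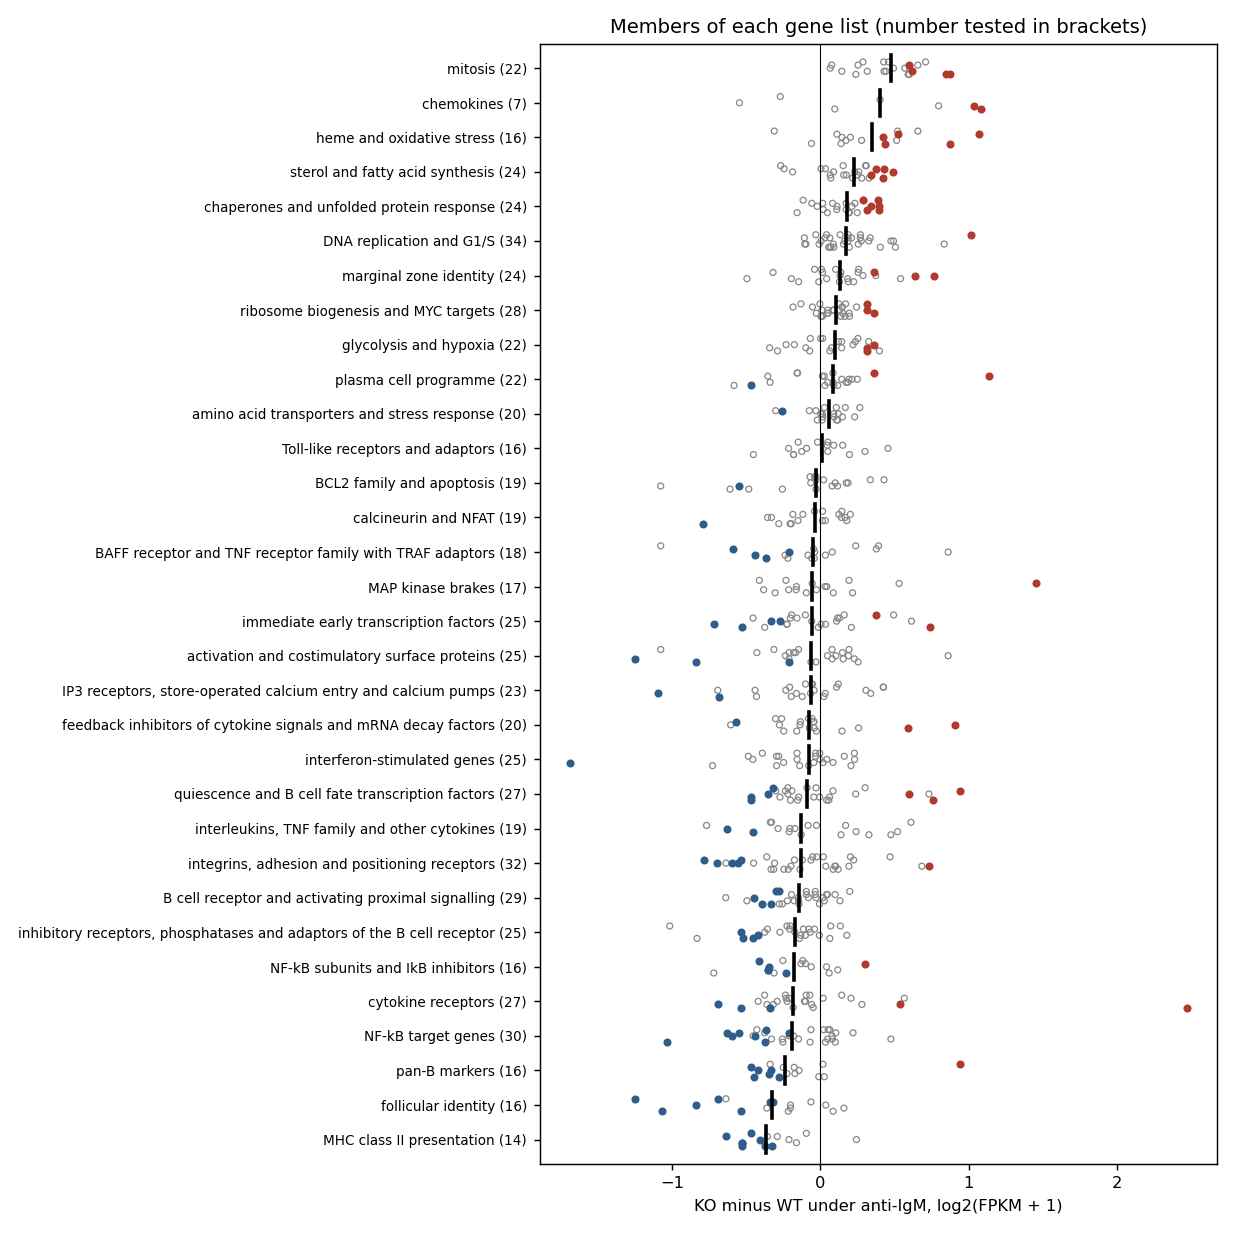
KO minus WT difference under anti-IgM of each tested member of a list, on the log2(FPKM + 1) scale, with filled red points for members called higher, filled blue points for members called lower, open points for the rest and a black bar for the median. The lists plotted are those of pathways and B cell subsets, and their medians run from -0.37 for MHC class II presentation to 0.48 for mitosis.

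Markers of other cell types moved with the genotype in some lists, and their part in the results above was not tested. The 14 macrophage and monocyte markers summed to 162 and 172 FPKM in KO cells and 93.6 and 102 FPKM in WT cells, most of which was Hmox1, which also belongs to the heme list. Lyz2 (9.34 and 13.1 FPKM in KO cells, 5.51 and 5.22 FPKM in WT cells) was the other called marker of the 8 tested, lost without KO replicate 2, WT replicate 1 or WT replicate 2. The defining markers Csf1r and C1qa were at no more than 0.470 and 0.564 FPKM. Adgre1, a further defining marker, read 1.60 and 0.998 FPKM in KO cells and 1.01 and 1.49 FPKM in WT cells. Of the 8 tested macrophage and monocyte markers 4 had a positive and 4 a negative difference, with a median of -0.0004. The 7 erythroid markers summed to 249 and 307 FPKM in KO cells and 521 and 379 FPKM in WT cells. Their differences were negative in 5 and positive in 2. Hbb-bs varied between replicates, with 0.0335 and 57.4 FPKM in KO cells and 137 and 0.102 FPKM in WT cells. Of these Hba-a1 alone read 166 and 16.0 FPKM in KO cells and 338 and 329.5 FPKM in WT cells, and only Alas2 fell (-0.56 ± 0.12), a call lost without KO replicate 1, KO replicate 2 or WT replicate 2. The 11 T cell markers in the files summed to 95.7 and 92.8 FPKM in KO cells and 108 and 103 FPKM in WT cells. In this list 9 genes were under 1 FPKM in all 4 libraries, with Cd3e at no more than 0.141 FPKM, and Ncr1, S100a9 and Tnfrsf17 were at 0 in all 4. Plasma cell markers summed to 320.2 and 309.8 FPKM in KO cells and 267 and 282 FPKM in WT cells, while their defining marker Sdc1 read 4.10 and 4.74 FPKM in KO cells and 6.96 and 7.24 FPKM in WT cells and was not called. Pecam1, which is counted both with the inhibitory receptors and with the endothelial markers, fell by 0.52 ± 0.11, and the other 9 stromal and endothelial markers were under 1 FPKM. Among signs of RNA quality, the nuclear RNAs Malat1 (155 and 158 FPKM in KO cells, 196 and 219 FPKM in WT cells) and Neat1 (49.3 and 54.5 FPKM in KO cells, 62.2 and 75.3 FPKM in WT cells) stood at -0.40 each and were not called (limma adjusted p = 0.0506 and 0.0674).

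Most of the genes called under anti-IgM differed in the same direction in the other conditions, which share no libraries with the anti-IgM comparison. The calls of the 3 conditions are not independent, because each gene has 1 estimate of its spread over all 12 libraries. The labels also do not say whether cells of the same animals were used in the 3 conditions. In sign, 191 of the 206 higher genes matched under LPS and 199 without stimulus, as did 182 and 194 of the 207 lower genes. Of the 206 higher genes, 85 (41.3%, and 43.4% of those called higher under LPS) were also called higher under LPS, 124 (60.2%, and 25.8% of those called higher without stimulus) without stimulus, and 67 (32.5%) in all 3 conditions, while 63 (30.6%) were called in neither of the other 2. Of the 207 lower genes, 78 (37.7%, and 40.6% of those called lower under LPS) were also lower under LPS, 87 (42%, and 48.6% of those called lower without stimulus) without stimulus and 44 (21.3%) in all 3, while 86 (41.5%) were called in neither. The LPS comparison called 388 of the tested genes (3.59%), with 1.82% higher and 1.78% lower. The unstimulated comparison called 660 (6.11%), with 4.45% higher and 1.66% lower. Anti-IgM against no stimulus called 49.9% of tested genes in KO cells and 48.6% in WT cells. The median difference of the higher genes was 0.45 under anti-IgM, where they were selected, 0.30 under LPS and 0.34 without stimulus, and that of the lower genes was -0.55, -0.30 and -0.32. Il5ra, Cd9, Spib and Prelid2 were called in the same direction in all 3 conditions. The single gene called in opposite directions was Ly6d, a surface protein of the B lineage. It read 674 and 655 FPKM in KO cells and 549 and 542 FPKM in WT cells under anti-IgM, and 2090.0 and 1915 FPKM in KO cells and 2380.0 and 2402 FPKM in WT cells under LPS.

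**Figure D4:**
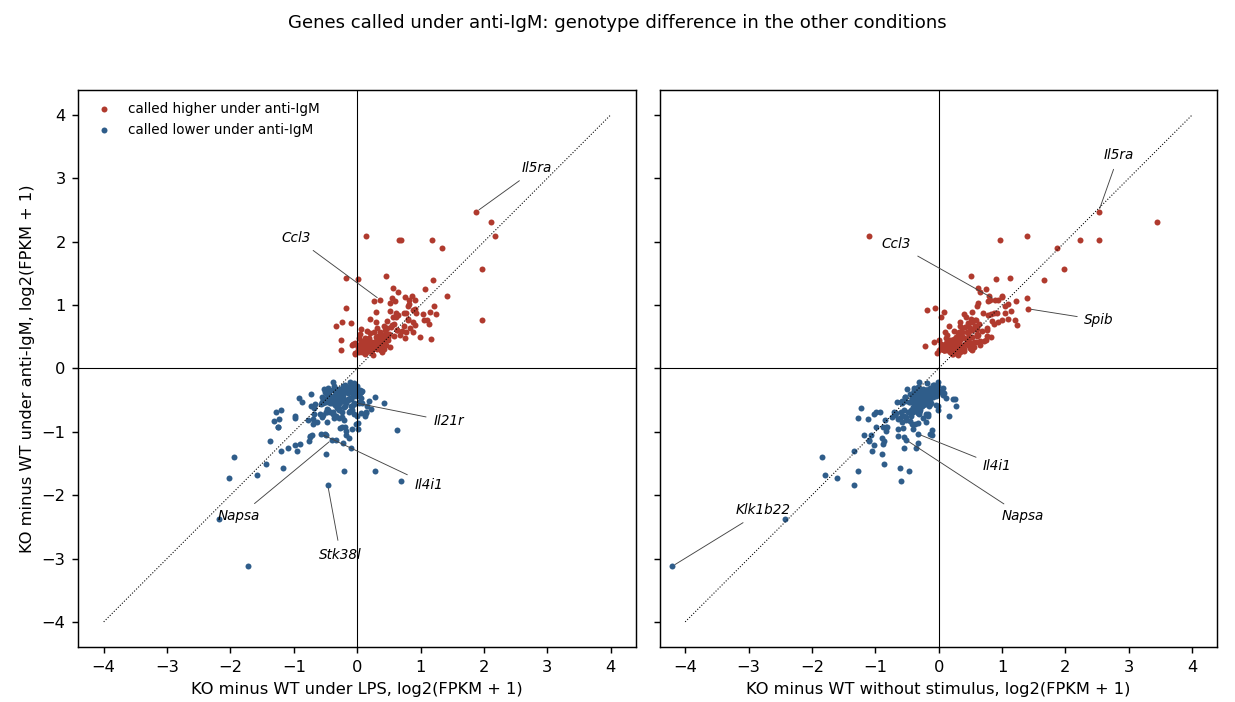
Genes called under anti-IgM, with the KO minus WT difference under anti-IgM on the y axes and the same difference under LPS (left) and without stimulus (right) on the x axes, all on the log2(FPKM + 1) scale. Points on the dotted line differ equally in both conditions, and most points lie in the quadrants of equal sign.

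Whether the genotype difference itself depended on the stimulus was tested with an interaction term. Against unstimulated cells 3 genes were called (0.0278%; 857 at an unadjusted p under 0.05), of which Il4i1 was the only protein-coding gene. It read 78.0 and 74.7 FPKM in KO cells and 158 and 156 FPKM in WT cells under anti-IgM, and 42.4 and 40.8 FPKM in KO cells and 52.1 and 53.1 FPKM in WT cells without stimulus. The difference under anti-IgM went further down, by -0.70 ± 0.08 (limma adjusted p = 0.0136). Anti-IgM raised Il4i1 by 0.86 in KO cells and by 1.56 in WT cells. The interaction lost its call without any one of the 4 anti-IgM libraries, without KO unstimulated replicate 1 and without the mean-variance trend, with adjusted p of 0.00662 to 0.19 over 15 settings (limma). The count of 3 became 6 without KO unstimulated replicate 2, 7 without WT unstimulated replicate 1 and 5 without WT unstimulated replicate 2. The next genes of smallest p were Napsa, Tmem123 and Shmt2 on the negative side and Kctd13, Wsb1, Slirp and Lyz2 on the positive side, none of them called. Shmt2, a mitochondrial enzyme of serine and glycine metabolism, read 221 and 220.1 FPKM in KO cells and 216 and 221 FPKM in WT cells under anti-IgM, and 117 and 119 FPKM in KO cells and 86.7 and 86.0 FPKM in WT cells without stimulus. The groups overlapped under anti-IgM alone, and the interaction missed the threshold.

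Against LPS 12 genes were called (0.111%; 1058 at an unadjusted p under 0.05), of which 9 were protein-coding. The count became 5 without KO anti-IgM replicate 1, 4 without KO anti-IgM replicate 2, 4 without WT anti-IgM replicate 1, 6 without KO LPS replicate 2 and 5 without WT LPS replicate 1 or WT LPS replicate 2, left out singly. Lrmp, an endoplasmic reticulum protein of lymphocytes that binds IP3 receptors, read 167 and 168 FPKM in KO cells and 122 and 127 FPKM in WT cells under anti-IgM, against 42.9 and 44.2 FPKM in KO cells and 8.88 and 12.3 FPKM in WT cells under LPS. Its genotype difference was smaller under anti-IgM by -1.54 ± 0.15 (limma adjusted p = 0.00446), a call kept in 15 of 15 settings. Ccl3 differed more under anti-IgM than under LPS, by 0.72 ± 0.10 (limma adjusted p = 0.0378). It read 193 and 187 FPKM in KO cells and 145 and 150.0 FPKM in WT cells under LPS. The genotype differences of Napsa (-0.72 ± 0.08), Stk38l (-1.37 ± 0.19) and Il21r (-0.49 ± 0.07) were more negative under anti-IgM than under LPS. Vps37b, a subunit of the ESCRT sorting complex, fell by 0.45 ± 0.08 under anti-IgM and stood at 0.28 under LPS. The fatty acid translocase Cd36 read 85.8 and 85.1 FPKM in KO cells and 84.8 and 84.5 FPKM in WT cells under anti-IgM, but 82.8 and 76.5 FPKM in KO cells and 51.4 and 54.0 FPKM in WT cells under LPS. Of these Lrmp kept the interaction in every setting, Napsa in 9 of 15 and Ccl3, Il21r, Stk38l, Cd36 and Vps37b in 3 to 5 of 15.

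The genes called under anti-IgM were spread over all autosomes and X, with the largest share on chromosome 6. Of 493 tested genes on chromosome 6, 36 (7.3%) were called, against 3.83% of all tested genes, 4.3% of 814 on chromosome 7, where Trpm5 lies, and 3.6% of 9490 outside these 2 chromosomes. Chromosomes 12 (6.18%) and 17 (6.11%) came next. The share on chromosome 6 was 3.45% without KO replicate 1, 3.25% without KO replicate 2, 3.45% without WT replicate 1 and 3.65% without WT replicate 2. Over all tested genes the shares with the same libraries left out were 1.32%, 1.19%, 1.44% and 1.1%. With all libraries the share on chromosome 6 was 6.09% under LPS and 10.3% without stimulus. In windows of 10 Mb with at least 20 tested genes, 7 of 28 genes were called between 130 and 140 Mb of chromosome 6 (25%), 4 of 21 between 20 and 30 Mb of chromosome 12 (19%), 12 of 69 between 120 and 130 Mb of chromosome 6 (17.4%) and 6 of 37 between 140 and 150 Mb of it (16.2%). The windows of chromosome 6 hold genes described above: Cd9, Ptpn6, Cd69, Clec2i, Gapdh and Tpi1 in the window from 120 Mb, Plbd1 in that from 130 Mb, and Itpr2, Stk38l and Rps4l in that from 140 Mb. On chromosome 7, Klk1b22, Spib, Napsa, Il4i1, Sult2b1 and Emp3 lie between 44112673 and 45921404 (mm10), far from Trpm5 on the same chromosome. Of 16 tested neighbours of Trpm5, Cd81, Tspan32, a tetraspanin of blood cells, and Lsp1, an actin-binding protein of leukocytes, fell and none rose, with a median of -0.016. That count became 1, 0, 1 and 1 without KO replicate 1, KO replicate 2, WT replicate 1 and WT replicate 2. Whether the position of these genes plays a part in their difference was not tested.

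**Figure D5:**
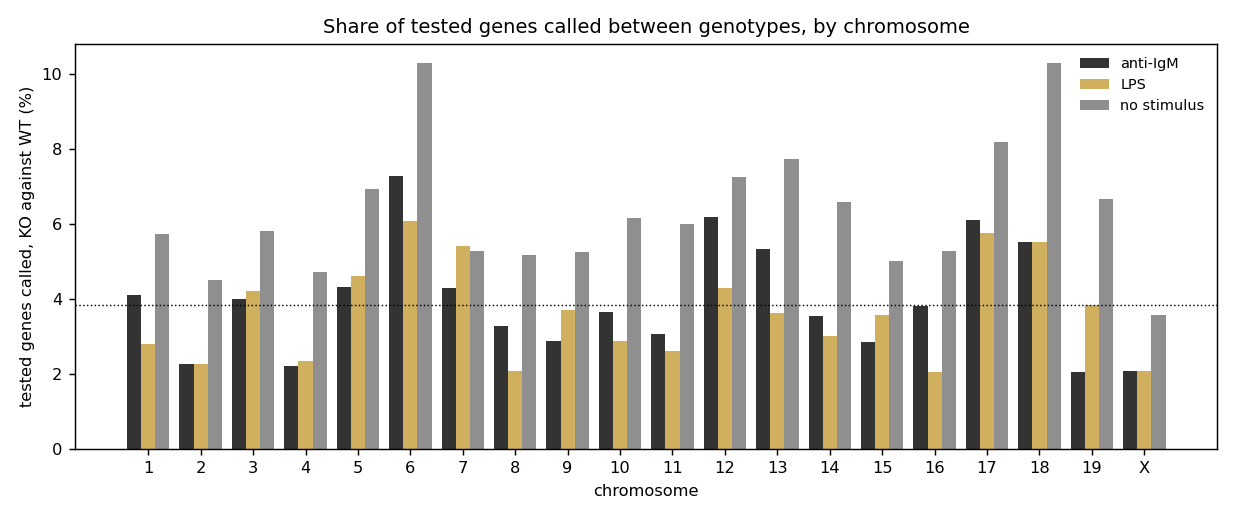
Share of tested genes called between KO and WT on each chromosome, under anti-IgM, LPS and no stimulus (bars, in %), with a dotted line at 3.83%, the share over all tested genes under anti-IgM. Chromosome 6 has the highest share under anti-IgM, 7.3%.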

How the data were processed

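The 12 libraries were made from total RNA by SMART-Seq HT amplification of whole transcripts and Nextera tagging, per the labels' protocols, a route that does not mark strand. The authors deposited FPKM per gene. Cufflinks 2.2.1, SAMtools 0.1.19, Bowtie2 2.2.3, TopHat2 2.0.13 and mm10 are listed, with no role for each, in the submitters' processing notes. Not given in the sources used here were the annotation, the mapped totals and the deleted part of Trpm5. Depth is therefore known only relative to KO replicate 1, and the FPKM values carry no counts to test.

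From these values, log2(FPKM + 1) was fitted with limma 3.58.1 in R 4.3.3 as means of the 6 groups over the 12 libraries, with a mean-variance trend, for genes that reached 1 FPKM in 2 or more libraries. Benjamini-Hochberg adjustment ran over the 10797 genes tested in each of 7 contrasts, and genes with an adjusted p under 0.05 were called. Group means share 1 estimate of the spread, so a fit without a library lets the lone library of its group vary like those of the other groups. No 2 libraries held identical values. Replicate numbers did not pair libraries (the deviations of the KO and WT anti-IgM replicates correlated at r = 0.037, and between -0.17 and 0.2 over 15 pairs of groups), so no block was used. The script was tested on simulated data.

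The genes named are the 12 largest rises and the 12 largest falls that were called, reached a mean of 5 FPKM in 1 genotype and had no overlap between libraries, leaving out predicted gene models, antigen receptor segments and small RNAs. They also include the called members of each list of smallest p, at most 4, and the genes of smallest p in the interactions. Ccl3, Ccl4, Il5ra, Itpr2, Itpr1, Il4i1 and Fcer2a were named in advance because they were known from earlier results of these data. Further called members of a list, and Ly6d, were named after their values were seen. Some genes that the rule covers are not reported here, though they remain in the counts. The comparison, its 44 gene lists and the rule were chosen with earlier results of these data known. Alternatives varied the pseudocount, filter, scaling, trend, block and libraries. Leaving libraries out for the lists and chromosomes was added after seeing the data.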

Additional observations from a re-analysis of the deposited data

Results flagged for a closer look

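These values are differences between the genotype difference under anti-IgM and that under another condition, on the log2(FPKM + 1) scale, and all were tested with limma over all genes. Against unstimulated cells the difference was called for Il4i1 (-0.70). Against LPS it was called for Napsa (-0.72), Stk38l (-1.37), Il21r (-0.49), Vps37b (-0.73), Lrmp (-1.54), Cd36 (-0.57) and Ccl3 (0.72). It was called as well for Rasgef1b (0.54), an exchange factor for small GTPases, with 327 and 324 FPKM in KO cells and 298 and 292 FPKM in WT cells under anti-IgM, against 68.0 and 71.4 FPKM in KO cells and 90.2 and 94.0 FPKM in WT cells under LPS. Rasgef1b kept this call in 4 of 15 settings.

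Amd2 (3.82 against LPS) is a near-identical copy of Amd1, an enzyme of polyamine synthesis, and the share of each copy is uncertain. It kept the call in 5 of 15 settings. Under LPS Amd2 read 5.93 and 2.44 FPKM in KO cells and 75.8 and 68.2 FPKM in WT cells, while Amd1 read 94.4 and 100.3 FPKM in KO cells and 17.7 and 32.3 FPKM in WT cells. Small RNA genes were listed at 0 in whole groups. Mir18 (-8.53 against both other conditions) was at 0 except in WT cells under anti-IgM, with 235 and 577 FPKM. Mir324 (-8.78) and Snord33 (-10.82) were at 0 except in KO cells under LPS, and Snora31 (7.64 against unstimulated cells) was at 0 only in KO cells without stimulus.

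In other genes the KO libraries lay on opposite sides of the WT libraries in 2 conditions, but the difference missed the threshold. Against unstimulated cells these were Kctd13 (0.57), Slirp (0.48), Tmem123 (-0.48), Rasgef1b (0.34) and Tnfrsf18 (-0.86). Against LPS they were Pecam1 (-0.71), Rel (-0.42), Tnfrsf18 (-0.74), Traf1 (-0.43), Mzb1 (0.44) and Neat1 (-0.60).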

How the results depend on the processing

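The 413 genes called under anti-IgM became 248 without the mean-variance trend, 116 when only the 4 anti-IgM libraries were fitted, and 119 to 156 with 1 anti-IgM library left out. The 206 higher genes became 103, 66 and 53 to 77 under the same 3 changes, and the 207 lower genes became 145, 50 and 66 to 84. When only the 4 anti-IgM libraries were fitted, 64 of the 112 named genes that were called lost the call. Among them were Egr1, Fos, Icam1, Bcl2l1, Ltb, Emp3, Plbd1, Atp10d and Fdft1. Pseudocount 0.1, no filter on low values, a mean of at least 5 FPKM, median-of-ratios scaling and quantile normalization gave 332 to 420 calls, and quantile normalization gave 176 higher and 221 lower. With the replicate number as a block 413 genes were called, 374 of them shared, with 214 higher and 199 lower. The interaction with unstimulated cells called 3 genes, 9 with no filter, 3 under the block and 2 to 7 with a library left out. The difference from LPS called 12 genes, 5 under the block and 4 to 17 with a library left out. The fit without the filter tested 15928 genes, and leaving out a library reduced the libraries of a group to 1, while the cause of the other changes was not tested. Of the genes named, none of them called, Shmt2 turned to -0.0926 and Cd36 to -0.0382 with quantile normalization. With 1 anti-IgM library left out Shmt2 ran from -0.0044 to 0.03, Amd2 from -0.5132 to 0.3589, Cd8b1 from -0.0138 to 0.0541, Prf1 from -0.0824 to 0.2335 and Itgb3 from -0.7497 to 0.3511. With 2 libraries a group and no counts, small differences of low genes were not detectable.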

Other observations

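Genes outside the lists, chosen after their values were seen, added to the picture of Trpm5-/- cells under anti-IgM. Tmem173, the DNA-sensing adaptor STING, read 10.2 and 9.02 FPKM in KO cells and 18.2 and 18.6 FPKM in WT cells (-0.87 ± 0.08, limma adjusted p = 0.000314). Mef2c, a transcription factor that B cells use to proliferate after antigen receptor signals, read 54.8 and 52.7 FPKM in KO cells and 83.6 and 76.4 FPKM in WT cells (-0.56 ± 0.08, limma adjusted p = 0.00536). Hvcn1, a proton channel of B cells, read 80.6 and 82.0 FPKM in KO cells and 114 and 116 FPKM in WT cells (-0.49 ± 0.07, limma adjusted p = 0.005). All 3 were lower in both KO libraries. The cholesterol exporter Abca1 was lower too, with 2.04 and 2.43 FPKM in KO cells and 5.71 and 5.94 FPKM in WT cells. Of the lymphocyte GTPase genes in the Gimap cluster on chromosome 6, Gimap1, Gimap3, Gimap4 and Gimap6 fell (-0.50 to -0.36), and Gimap5, Gimap7, Gimap8 and Gimap9 were not called.

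Tyrobp, the adaptor DAP12, read 38.2 and 39.0 FPKM in KO cells and 18.6 and 17.4 FPKM in WT cells (1.06 ± 0.13, limma adjusted p = 0.002). Alpl, an alkaline phosphatase, read 32.4 and 32.5 FPKM in KO cells and 21.0 and 18.9 FPKM in WT cells (0.68 ± 0.07, limma adjusted p = 0.000757). Ide, the insulin-degrading protease, read 118 and 113 FPKM in KO cells and 65.7 and 67.8 FPKM in WT cells (0.78 ± 0.08, limma adjusted p = 0.000824). These 3 were also called higher in KO cells under LPS and without stimulus.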
